A study of Mus musculus with 6 samples.

Results

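The genes described here are 40 interferon-induced antiviral effectors and nucleic acid sensors of the mouse, chosen by gene symbol, among 21604 symbols in the deposited tables. They comprise 8 sensors and 32 effectors, and 38 of the 40 had a row in the tables. Mx1 and Mx2 were not analysed here. Of the 38, 36 had enough reads to be tested, and Ifi205 and Iigp1 did not.

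RNA was sequenced from RAW 264.7, an established wild-type mouse line of macrophage character, which the labels also call a bone marrow macrophage. The 3 LPS plus PE-CUR libraries came from cells given 2 mg/mL PE-CUR and 100 ng/mL lipopolysaccharide (LPS), which forms part of the bacterial wall and is sensed by macrophages through the receptor TLR4, for 24 h. The 3 LPS libraries came from cells that were given LPS alone, at the same dose and for the same time. PE-CUR is named in the labels without further detail, and the series title speaks of curcumin carried in Pickering emulsions, whose droplets are held by solid particles. No untreated cells, empty emulsion or free curcumin were analysed here. LPS is thus common to both groups, and no value below shows a response to LPS itself or separates curcumin from its carrier. The labels do not tie the libraries of a group to separate cultures, so p-values measure the spread between these libraries, which may be technical.

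Interferons are secreted proteins that make cells resistant to viruses. In macrophages, RNA and DNA sensors such as RIG-I, MDA5 and cGAS, and TLR4 through its adaptor TRIF, activate kinases that switch on the interferon beta gene. Interferon beta then acts on the cells through its receptor, and a complex of transcription factors that includes IRF9 binds a DNA element in the promoters of the target genes, the interferon-stimulated response element. Many of the sensors are themselves targets, so the pathway can amplify its own input.

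Promoter sequence is shown first, as a description of the genes. RefSeq windows (build GRCm38.p6) from 250 bases before to 50 bases after each annotated start were found for 29 of the 40 genes. The core of the interferon-stimulated response element, searched on both strands, was taken as GAAA, any 2 bases and GAAA. It was present in 17 of the 29 genes (58.6%), among them 5 of 5 sensors and 12 of 24 effectors, and in 3.99% of the 27025 genes that have such a window. The core TTCNNNGAA of the GAS element, known from interferon gamma target genes, which reads alike on both strands, was present in 8 of the 29 genes (27.6%) and in 9.55% of all genes. The response core was found in 15 of the 25 genes with a window that were higher in LPS plus PE-CUR and in 1 of the 3 that were tested and not called. A match is a run of letters and no evidence that a factor bound there. The genes were chosen as interferon-induced, so a share above that of all genes is no result of these libraries. The stretches below, all upstream of the start, show a gene with 3 overlapping copies of the core (Isg15), a sensor (Ddx60), genes of the middle of the range (Rsad2, Bst2) and 3 pairs of gene copies that are compared later. Capitals mark matches to either core, and a response core on the other strand reads TTTC, any 2 bases and TTTC.
Isg15 (chr4:156200859-156200918, minus strand): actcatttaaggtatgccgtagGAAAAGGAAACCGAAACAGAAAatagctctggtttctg
Ifit3 (chr19:34583359-34583438, plus strand): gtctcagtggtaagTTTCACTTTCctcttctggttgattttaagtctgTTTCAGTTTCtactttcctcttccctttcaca
Ifit3b (chr19:34607755-34607834, plus strand): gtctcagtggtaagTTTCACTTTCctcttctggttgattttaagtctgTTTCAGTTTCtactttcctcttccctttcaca
Ddx60 (chr8:61928017-61928086, plus strand): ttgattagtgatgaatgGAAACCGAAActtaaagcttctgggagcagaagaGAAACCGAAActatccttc
Igtp (chr11:58199496-58199545, plus strand): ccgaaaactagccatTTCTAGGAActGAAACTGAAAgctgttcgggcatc
Irgm2 (chr11:58214887-58214936, plus strand): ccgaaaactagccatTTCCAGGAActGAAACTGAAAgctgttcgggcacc
Oas1a (chr5:120907528-120907577, minus strand): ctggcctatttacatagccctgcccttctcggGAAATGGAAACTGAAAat
Oas1g (chr5:120887614-120887663, minus strand): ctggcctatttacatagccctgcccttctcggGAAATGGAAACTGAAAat
Rsad2 (chr12:26456543-26456592, minus strand): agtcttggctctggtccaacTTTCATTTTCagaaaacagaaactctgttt
Bst2 (chr8:71537573-71537622, minus strand): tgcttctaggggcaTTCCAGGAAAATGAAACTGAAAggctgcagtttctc
The interferon-stimulated response cores stood at bases -78 to -57 of Isg15 in 3 overlapping copies. In the Bst2 stretch a GAS core overlaps the first of 2 response cores. The 80 bases of Ifit3 and Ifit3b were identical at 80 positions, and the 50 bases of Oas1a and Oas1g at 50. The 50 bases of Igtp and Irgm2 matched at 48 of 50 positions, with both cores at the same spacing.

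**Figure D1:**
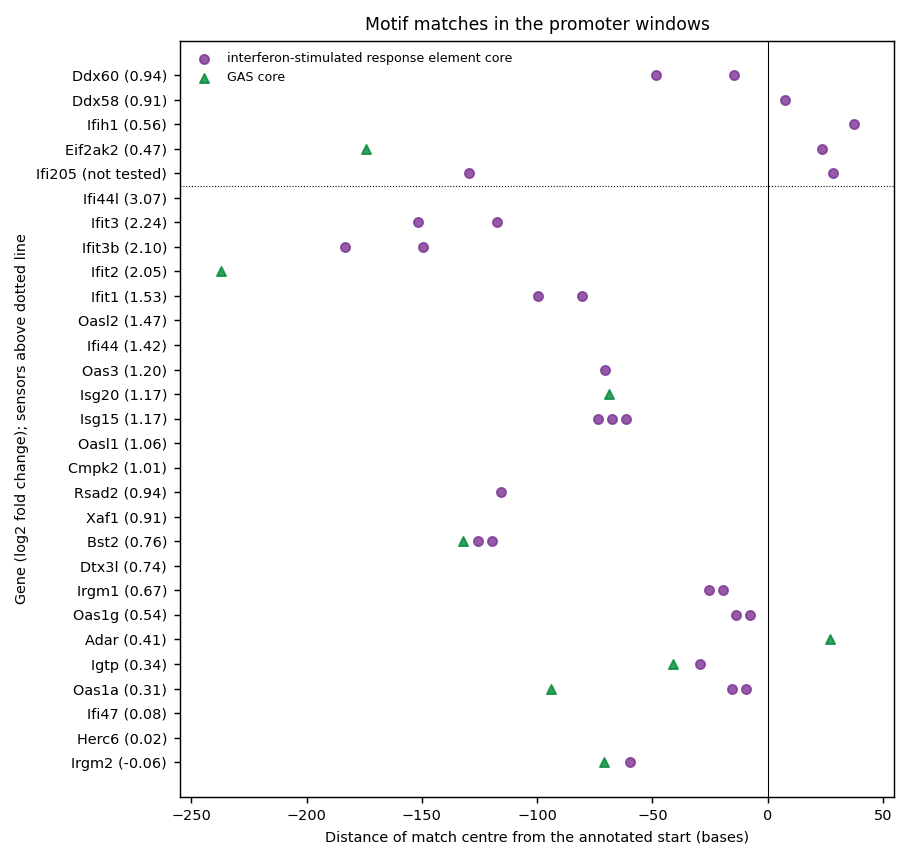
Positions of motif matches in the promoter windows of 29 genes, as the distance in bases of the centre of each match from the annotated start (x axis), by gene with its log2 fold change, LPS plus PE-CUR over LPS (y axis); circles are the response core, triangles the GAS core. Ifi44l, with the largest fold change (3.07), had no match to either core, and Irgm2, with the lowest (-0.06), had a match to each.

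In LPS plus PE-CUR, 31 of the 36 tested genes were higher, 0 were lower and 5 were not called (threshold 0.05 on p-values of edgeR's quasi-likelihood fit over 13014 genes, adjusted by the method of Benjamini and Hochberg). Of all 13014 genes, 30.8% were higher, 32.7% were lower and 63.4% were called in either direction, so a call by itself is common in these data. The median log2 fold change of the 36 genes was 0.90 and that of all genes -0.03. The genes were chosen with earlier results of these data known, so the shares do not compare a list picked blind with its background. By unadjusted p under 0.05 the count of lower genes was also 0, as it was with DESeq2 and limma-voom. A rise of at least 2-fold that passed the test was seen in 14 of the 36 genes and in 6.37% of all genes. The groups did not overlap, with every LPS plus PE-CUR library above every LPS library, in 30 of the 36 genes and in 33.3% of all genes. All 36 tested genes held at least 10 counts in every LPS library, so none was tested only because of reads in LPS plus PE-CUR. Of the 7 tested sensors 6 were higher, and the median log2 fold change of the 7 was 0.91. Of the 29 tested effectors 25 were higher, and their median was 0.90.

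**Figure D2:**
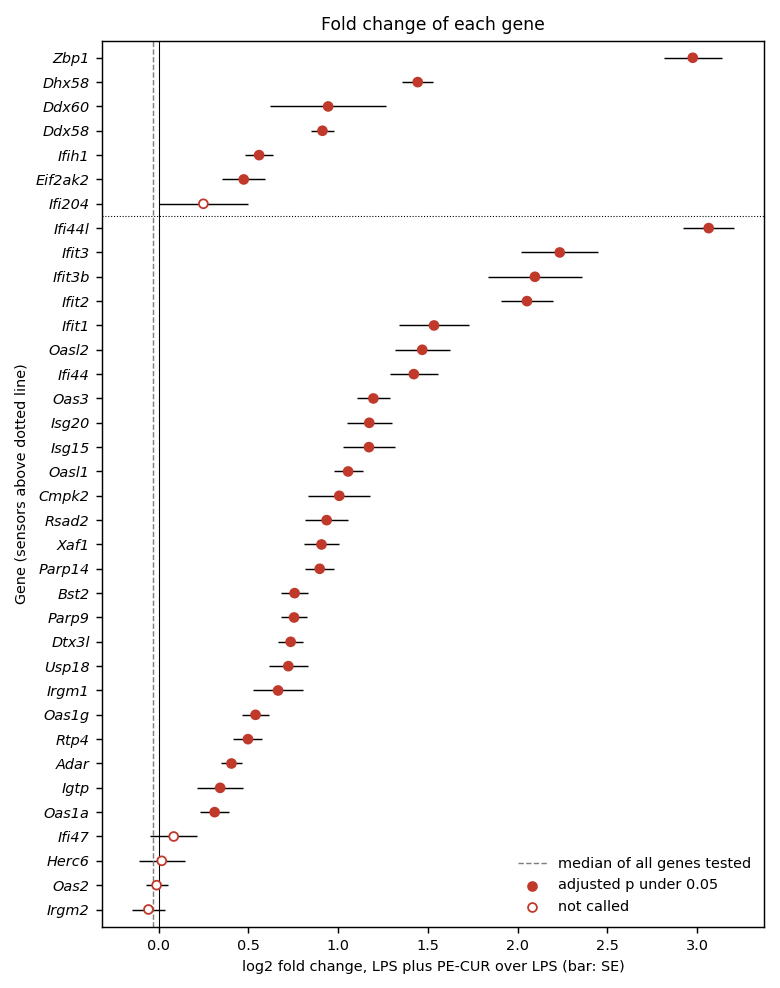
Log2 fold change, LPS plus PE-CUR over LPS, of the 36 tested genes (x axis; bars are the SE of 3 against 3 libraries), sensors above the dotted line and effectors below, each ordered by fold change. The range runs from -0.06 (Irgm2) to 3.07 (Ifi44l), and 31 genes have filled points, past the threshold.

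Levels are given as CPM, counts scaled by the library total and its TMM factor, where 1 CPM of the unscaled total is 28.5 to 35.3 counts in a library. Total counts were 28530750 to 35231076 in the LPS plus PE-CUR libraries and 32005736 to 35276533 in the LPS libraries. The macrophage markers Cd68, Lyz2, Csf1r, Itgam, Cd14, Ptprc and Spi1 were abundant in every library, and the 10 listed markers summed to 9110 to 9785 CPM in LPS plus PE-CUR and 10561 to 11154 CPM in LPS. Of these 10, 2 were higher (Csf1r and Cd14) and 5 lower (Adgre1, Fcgr3, Mertk, Lyz2 and Itgam) in LPS plus PE-CUR. Adgre1, which encodes F4/80, had 26.8 ± 3.50 CPM in LPS plus PE-CUR and 85.2 ± 7.25 CPM in LPS (mean ± SD, n = 3). By fold, Fcgr3 (14.2 ± 4.70 against 119 ± 15.5 CPM in LPS) and Mertk (0.0745 ± 0.0168 against 0.884 ± 0.0482 CPM in LPS) fell further. Some libraries held transcripts of other tissues. The 8 hepatocyte markers summed to 136 counts or fewer in LPS plus PE-CUR replicates 1 and 2 and to 2426 to 3211 counts in the other 4 libraries. Alb, the albumin gene, had 1, 0 and 1648 counts in LPS plus PE-CUR replicates 1 to 3 and 1600, 1081 and 1711 counts in LPS replicates 1 to 3. Of the 8, 0 were higher and 1 was lower in LPS plus PE-CUR, and the other 7 did not pass. The 5 fibroblast markers with a row summed to 426 counts in LPS plus PE-CUR replicate 2 and to 76 or fewer in every other library. Of 5 listed markers of plasmacytoid dendritic cells, which secrete interferon, 3 had a row, and Siglech and Klk1 could not be examined. The 3 summed to 149.9 to 181 CPM in LPS plus PE-CUR and 87.6 to 95.3 CPM in LPS. Nearly all of that was Tcf4, a factor of many cell types, which was higher, while Ccr9 (0 to 2 counts in LPS plus PE-CUR, 15 to 19 in LPS) and Cox6a2 were lower. The listed markers of T cells, B and plasma cells, neutrophils, red cells and skeletal muscle each summed to under 6 CPM in every library. The part of these transcripts in the values of single genes was not tested. LPS plus PE-CUR replicate 3 alone, which held hepatocyte transcripts at the level of the LPS libraries, was also set against the 3 LPS libraries. This choice was made after seeing the data. The spread in that fit came from the LPS libraries only, under the assumption that a lone library varies like them. In that comparison 31 members were higher and 0 lower, against 27.2% of all 13805 genes higher and 24.5% lower. The 31 were not the same genes, since Ifi204 gained the call (log2 fold change 0.38) and Igtp lost it (log2 fold change 0.42). With all libraries, the SD of Ifi204 was 9.92 CPM in LPS plus PE-CUR and 1.14 CPM in LPS. For Igtp the SD was 0.672 CPM in LPS plus PE-CUR and 2.09 CPM in LPS. The spread of LPS thus did not stand for that of LPS plus PE-CUR in these genes. The calls of this comparison are therefore no further evidence of a rise. In bulk RNA, more transcripts per cell and more cells that hold them cannot be told apart.

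The sensors of RNA open the pathway. Ddx58, which encodes RIG-I, a helicase that recognises viral RNA ends (chr4:40203773-40239828, GRCm38, GENCODE M21), had 203, 209 and 213 CPM in LPS plus PE-CUR replicates 1 to 3, against 106, 119 and 107 CPM in LPS replicates 1 to 3. The groups lay well apart, with a log2 fold change of 0.91 (SE 0.06, edgeR adjusted p = 5.76e-07). Ifih1 (chr2:62595798-62646255) encodes MDA5, the sensor of long double-stranded RNA. It had 88.1, 105 and 88.8 CPM in LPS plus PE-CUR, against 63.02, 66.3 and 61.7 CPM in LPS, a smaller rise with no overlap (log2 fold change 0.56 with SE 0.08, edgeR adjusted p = 7.75e-05). Dhx58 (chr11:100694884-100704271) encodes LGP2, a relative of both that lacks their signalling domain and tunes them. Its levels were 56.6, 52.9 and 52.1 CPM in LPS plus PE-CUR, against 20.6, 21.4 and 17.4 CPM in LPS, the steepest rise of the 3 helicases (2.72-fold, edgeR adjusted p = 2.78e-07). An antisense gene, Dhx58os, overlaps it, and whether counting used strand is not given in the sources used here.

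Ddx60, a helicase reported to act beside RIG-I, was the least certain of the RNA sensors. It had 6.16, 14.9 and 8.78 CPM in LPS plus PE-CUR, against 5.87, 4.84 and 4.81 CPM in LPS. The highest LPS library lay just below LPS plus PE-CUR replicate 1, while replicate 2 was far above both others of its group (log2 fold change 0.94 with SE 0.32, edgeR adjusted p = 0.0403). Leaving out LPS plus PE-CUR replicate 3, or any one of the 3 LPS libraries, ended the call (adjusted p from 0.0636 to 0.119). The call held without LPS plus PE-CUR replicate 1 or replicate 2, and the fold changes over these 6 fits were 0.57 to 1.22. It also ended with the replicate number as a block (adjusted p = 0.0738), with limma-voom (0.0865) and with both fits of log2(FPKM + 1) (0.0510 and 0.117).

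Eif2ak2 encodes PKR, a kinase that double-stranded RNA switches on and that stops translation. It had 189, 264 and 220.4 CPM in LPS plus PE-CUR, against 173, 158 and 154 CPM in LPS (log2 fold change 0.47 with SE 0.12, edgeR adjusted p = 0.00942). The groups did not overlap, but LPS plus PE-CUR replicate 1 stood close above the highest LPS library.

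Among the sensors of DNA and of Z-form nucleic acids, Zbp1 changed most. Zbp1 (chr2:173206612-173218923) binds left-handed Z-form RNA and DNA and can start inflammatory cell death. It had 16.04, 22.2 and 19.7 CPM in LPS plus PE-CUR, against 2.64, 2.68 and 2.05 CPM in LPS. Every LPS library was near the low end of the set, and the rise was 7.87-fold, the 19th largest of all 13014 genes (log2 fold change 2.98 with SE 0.16, edgeR adjusted p = 1.51e-07). Ifi204, a DNA-binding protein of the PYHIN family, had 20.6, 40.2 and 32.9 CPM in LPS plus PE-CUR, against 27.6, 25.6 and 25.7 CPM in LPS and was not called (log2 fold change 0.25, edgeR adjusted p = 0.424). Its groups overlapped, with LPS plus PE-CUR replicate 1 below all 3 LPS libraries and the other 2 above them. Without that library Ifi204 was called higher (log2 fold change 0.50, adjusted p = 3.25e-04). Ifi205, another PYHIN gene, had 0, 2 and 0 counts in LPS plus PE-CUR and 6, 5 and 2 counts in LPS and was not tested. Annotated transcripts of Ifi204 share 2.58% of their 50-base words with those of Ifi205.

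**Figure D3:**
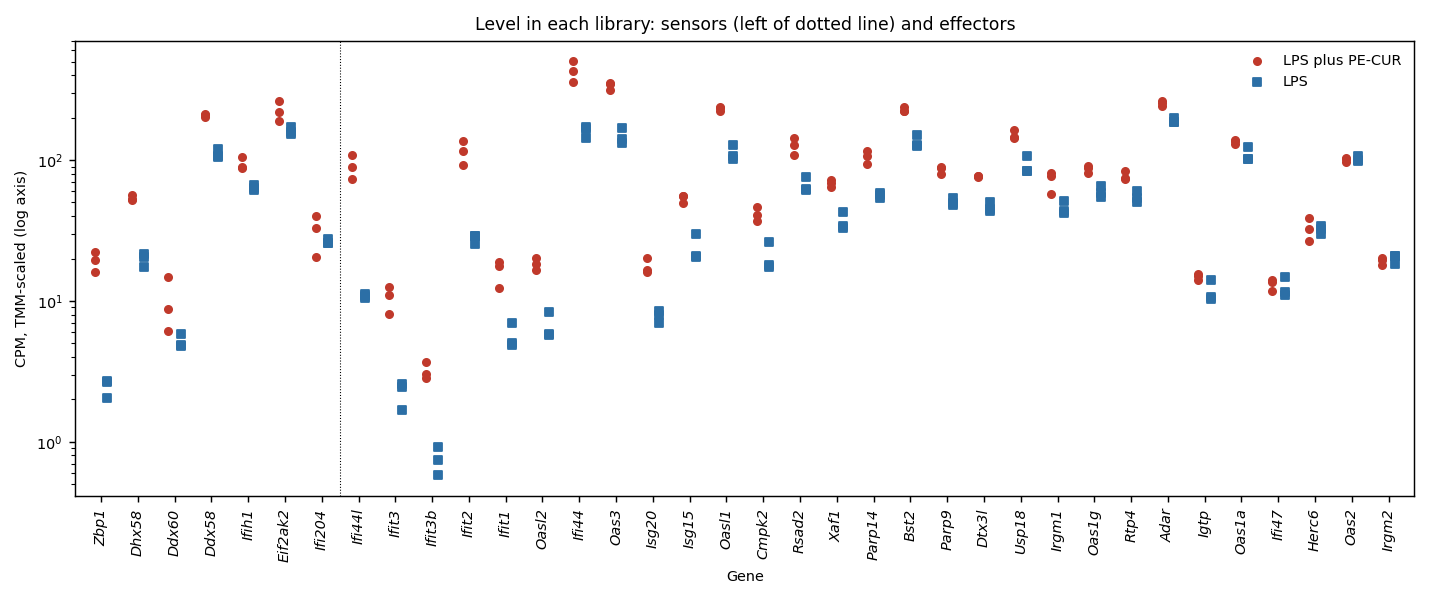
Level of each of the 36 tested genes in every library, in TMM-scaled CPM on a log axis (y) by gene (x); circles are the 3 LPS plus PE-CUR libraries and squares the 3 LPS libraries, sensors left of the dotted line. For Zbp1 the groups stand furthest apart among the sensors (16.04 to 22.2 CPM in LPS plus PE-CUR against 2.05 to 2.68 CPM in LPS), and for Ifi204, Herc6, Oas2, Irgm2, Ifi47 and Igtp they overlap.

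The largest rise of the whole set was in the effector Ifi44l, an interferon-induced gene that lies beside Ifi44 on chromosome 3 (chr3:151758737-151762892 and chr3:151730922-151749960). Ifi44l had 73.9, 109 and 89.4 CPM in LPS plus PE-CUR, against 11.3, 10.8 and 10.5 CPM in LPS. The LPS libraries were nearly alike and the lowest LPS plus PE-CUR library was far above them (8.37-fold, log2 fold change 3.07 with SE 0.14, edgeR adjusted p = 6.19e-07). Its rank by log2 fold change was 16 of 13014. Ifi44, which was already abundant, had 360.0, 502 and 428 CPM in LPS plus PE-CUR, against 165, 173 and 143 CPM in LPS. It rose 2.68-fold (SE 0.13 on the log2 scale, edgeR adjusted p = 8.65e-05). The annotated transcripts of the 2 genes share 0% of their 50-base words.

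The IFIT genes are interferon-induced, and the protein of Ifit1 binds viral RNA that lacks the host's cap modifications and blocks its translation. All 4 lie together on chromosome 19 (Ifit2 at chr19:34550694-34576419, Ifit1 at chr19:34640871-34650009) and all 4 rose more than 2-fold. Ifit2 had 92.1, 136 and 115 CPM in LPS plus PE-CUR, against 28.9, 28.8 and 25.2 CPM in LPS (log2 fold change 2.05 with SE 0.15, edgeR adjusted p = 1.69e-05). Ifit1 had 12.3, 18.8 and 17.8 CPM in LPS plus PE-CUR, against 5.01, 6.98 and 4.89 CPM in LPS (log2 fold change 1.53 with SE 0.20, edgeR adjusted p = 1.23e-04). Ifit3, a partner that stabilises Ifit1 in human cells, had 8.06, 12.6 and 10.9 CPM in LPS plus PE-CUR, against 2.46, 2.59 and 1.69 CPM in LPS (log2 fold change 2.24 with SE 0.21, edgeR adjusted p = 6.55e-06). In each of these genes replicate 1 was the lowest and replicate 2 the highest LPS plus PE-CUR library. Ifit3b, a copy of Ifit3, had 2.83, 3.68 and 3.03 CPM in LPS plus PE-CUR, against 0.737, 0.914 and 0.580 CPM in LPS, which in LPS is 21 to 30 counts per library (log2 fold change 2.10, edgeR adjusted p = 3.74e-05). Of the 50-base words of Ifit3 transcripts, 51.2% also occur in those of Ifit3b, so how reads were divided between this pair is uncertain.

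The OAS genes encode enzymes that double-stranded RNA activates and whose product, an oligoadenylate, sets off the decay of RNA. Of 6 members, 5 rose and 1 was not called. Oas3 (chr5:120753098-120777661) had 346, 317 and 351 CPM in LPS plus PE-CUR, against 141, 169.8 and 132 CPM in LPS (log2 fold change 1.196 with SE 0.09, edgeR adjusted p = 3.26e-06). Oasl1, which lacks the synthetase activity and restrains translation of Irf7 in mice, had 225, 236 and 237 CPM in LPS plus PE-CUR, against 102, 127 and 106 CPM in LPS (log2 fold change 1.06 with SE 0.08, edgeR adjusted p = 1.15e-06). Oasl2 had 16.7, 18.3 and 20.05 CPM in LPS plus PE-CUR, against 5.84, 8.35 and 5.69 CPM in LPS, the largest fold of the family (2.77-fold, edgeR adjusted p = 1.11e-05). In all 3 genes the groups were clear of each other, and LPS replicate 2 was the highest LPS library.

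The remaining OAS members differed less between the groups. Oas1g had 91.1, 87.4 and 81.3 CPM in LPS plus PE-CUR, against 58.4, 65.3 and 55.03 CPM in LPS (log2 fold change 0.54, edgeR adjusted p = 1.04e-04). Its copy Oas1a had 137, 131 and 139 CPM in LPS plus PE-CUR, against 101, 124 and 102 CPM in LPS (log2 fold change 0.31, edgeR adjusted p = 0.00582). The 2 copies share 54.1% of the 50-base words of Oas1g and 56.9% of those of Oas1a, so how reads were divided between them is uncertain. Oas2, a neighbour of Oas3 on chromosome 5 (chr5:120730333-120749853), had 102, 97.3 and 104 CPM in LPS plus PE-CUR, against 99.8, 108 and 98.1 CPM in LPS. The groups overlapped throughout and Oas2 was not called (log2 fold change -0.011 with SE 0.06, edgeR adjusted p = 0.880).

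Isg15 encodes a small ubiquitin-like protein that is attached to other proteins during an antiviral response. It had 49.4, 55.3 and 55.99 CPM in LPS plus PE-CUR, against 20.7, 29.9 and 20.8 CPM in LPS (log2 fold change 1.17 with SE 0.15, edgeR adjusted p = 2.13e-04). LPS replicate 2 was well above the other 2 LPS libraries but below all of LPS plus PE-CUR. Usp18, which removes ISG15 and also dampens the interferon receptor, had 142, 147 and 164 CPM in LPS plus PE-CUR, against 83.7, 108 and 83.1 CPM in LPS (log2 fold change 0.72 with SE 0.11, edgeR adjusted p = 3.70e-04). Herc6, the main ligase that attaches ISG15 in mice, had 26.5, 38.8 and 32.5 CPM in LPS plus PE-CUR, against 32.5, 34.2 and 30.1 CPM in LPS. Its LPS libraries lay within the range of LPS plus PE-CUR, and it was not called (log2 fold change 0.017 with SE 0.13, edgeR adjusted p = 0.914).

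Parp9, Dtx3l and Parp14 lie close together on chromosome 16, and PARP9 and the ubiquitin ligase DTX3L work as a pair. All 3 rose. Parp9 had 79.1, 89.1 and 88.1 CPM in LPS plus PE-CUR, against 48.3, 53.98 and 49.7 CPM in LPS (log2 fold change 0.75 with SE 0.07, edgeR adjusted p = 5.29e-06). Dtx3l had 75.7, 77.5 and 77.3 CPM in LPS plus PE-CUR, against 44.7, 50.3 and 43.3 CPM in LPS (log2 fold change 0.74 with SE 0.07, edgeR adjusted p = 5.38e-06). Parp14, an ADP-ribosyltransferase of macrophage signalling, had 93.6, 115 and 106 CPM in LPS plus PE-CUR, against 58.4, 56.8 and 54.01 CPM in LPS (log2 fold change 0.90 with SE 0.08, edgeR adjusted p = 3.18e-06). The groups were apart in all 3. The annotated starts of Parp9 (chr16:35938470-35972605, plus strand) and Dtx3l (chr16:35926511-35939151, minus strand) lie head to head and overlap. A part of their reads can thus be assigned to either without strand.

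Rsad2 and Cmpk2 are head-to-head neighbours on chromosome 12 that act on nucleotides. RSAD2, or viperin, makes a nucleotide analogue that ends viral RNA chains, and CMPK2 is a mitochondrial nucleotide kinase. Rsad2 (chr12:26442746-26456452) had 109, 129 and 144 CPM in LPS plus PE-CUR, against 61.4, 75.7 and 62.7 CPM in LPS (log2 fold change 0.94 with SE 0.12, edgeR adjusted p = 1.90e-04). Cmpk2 (chr12:26469204-26479837) had 36.9, 40.6 and 46.1 CPM in LPS plus PE-CUR, against 18.03, 26.1 and 17.4 CPM in LPS (log2 fold change 1.01 with SE 0.17, edgeR adjusted p = 0.00170). Both showed the same order of libraries within LPS plus PE-CUR, with replicate 1 lowest and replicate 3 highest.

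Isg20, an exonuclease that degrades RNA, had 20.2, 16.5 and 15.97 CPM in LPS plus PE-CUR, against 7.89, 8.53 and 6.97 CPM in LPS (log2 fold change 1.17 with SE 0.13, edgeR adjusted p = 1.28e-05). Adar, which edits adenosines in double-stranded RNA and so keeps host RNA from triggering MDA5, had 261, 241 and 254 CPM in LPS plus PE-CUR, against 186, 198 and 186 CPM in LPS (log2 fold change 0.41 with SE 0.06, edgeR adjusted p = 9.13e-05). Neither gene's groups overlapped, and in both LPS plus PE-CUR replicate 1 was the highest library, unlike in most of the set. Bst2, or tetherin, which holds budding virus at the cell surface, had 223, 225 and 239 CPM in LPS plus PE-CUR, against 126, 151 and 128 CPM in LPS (log2 fold change 0.76 with SE 0.07, edgeR adjusted p = 6.67e-06). Xaf1, a partner of the apoptosis inhibitor XIAP, had 64.7, 72.4 and 68.96 CPM in LPS plus PE-CUR, against 32.96, 42.7 and 34.2 CPM in LPS (log2 fold change 0.91, edgeR adjusted p = 1.82e-05). Rtp4, an interferon-induced receptor transporter protein, had 73.8, 74.9 and 83.5 CPM in LPS plus PE-CUR, against 53.8, 60.4 and 50.3 CPM in LPS (log2 fold change 0.50, edgeR adjusted p = 2.75e-04). These 3 were higher in every LPS plus PE-CUR library than in any LPS library.

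The immunity-related GTPases, which act against bacteria and parasites living in vacuoles and respond above all to interferon gamma, held 3 of the 6 genes whose groups overlapped. Irgm1, which governs the other members, had 57.5, 77.1 and 81.5 CPM in LPS plus PE-CUR, against 42.05, 50.9 and 43.2 CPM in LPS and rose (log2 fold change 0.67 with SE 0.14, edgeR adjusted p = 0.00437). Igtp, also called Irgm3, had 14.2, 15.5 and 15.1 CPM in LPS plus PE-CUR, against 10.7, 14.2 and 10.4 CPM in LPS. The lowest LPS plus PE-CUR library and LPS replicate 2 were about level, and the call was narrow (log2 fold change 0.34 with SE 0.13, edgeR adjusted p = 0.0349). Leaving out LPS plus PE-CUR replicate 2 or 3, or LPS replicate 1 or 3, ended it (adjusted p from 0.0541 to 0.103). It also ended with library size alone (0.0644), a filter at a mean of 1 CPM (0.0532) and both fits of log2(FPKM + 1) (0.0544 and 0.114). Without a given library the fold changes were 0.29 to 0.54.

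Irgm2, whose annotated gene overlaps Igtp on the same strand (chr11:58199618-58222782 and chr11:58199556-58207591), had 17.98, 19.4 and 20.3 CPM in LPS plus PE-CUR, against 20.8, 20.96 and 18.2 CPM in LPS. It was not called (log2 fold change -0.057 with SE 0.09, edgeR adjusted p = 0.604), although its stretch of promoter matches that of Igtp at 48 of 50 positions. Transcripts of Igtp share 11.8% of their 50-base words with Irgm2. Ifi47 had 11.8, 14.1 and 13.7 CPM in LPS plus PE-CUR, against 10.96, 14.8 and 11.6 CPM in LPS and was not called either (log2 fold change 0.084 with SE 0.13, edgeR adjusted p = 0.601). Iigp1, a GTPase that coats parasite vacuoles, had 2, 7 and 11 counts in LPS plus PE-CUR and 12, 4 and 9 counts in LPS and was not tested. Annotated protein-coding genes overlap Ifi47 (Olfr56), Adar (Chrnb2) and Rtp4 (Masp1) too, and other annotated genes overlap Eif2ak2, Oas2, Oasl1, Usp18, Herc6 and Parp14, so the division of reads there is also uncertain.

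Libraries of the same group differed in a shared way over the set. LPS plus PE-CUR replicate 1 was the lowest of its group in 29 of the 36 tested genes (80.6%), against 37.8% of all 13014 genes. LPS replicate 2 was the highest of its group in 30 of the 36 (83.3%), against 39.6% of all genes. The summed level of the sensors was 579, 708 and 636 CPM in LPS plus PE-CUR replicates 1 to 3 and 398, 398 and 372 CPM in LPS replicates 1 to 3. For the effectors the sums were 2823, 3116 and 3104 CPM in LPS plus PE-CUR, against 1582, 1822 and 1535 CPM in LPS. The spread within groups was smaller than the distance between them in both sums. Both of these libraries were then left out, also a choice made after seeing the data. They were picked for their low and high levels of these same genes, so a wider gap was fixed in advance for most of them. In that fit 33 of 36 genes were higher and 0 lower, against 30.0% of all 13149 genes higher and 30.1% lower. Ifi204 and Ifi47 gained the call (log2 fold change 0.48 and 0.32). The count is thus no further evidence of a rise. Among the genes not called with all libraries, Ifi204 and Herc6 had a wide spread in LPS plus PE-CUR (SD 9.92 and 6.16 CPM) and Oas2 a narrow one (SD 3.49 CPM).

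**Figure D4:**
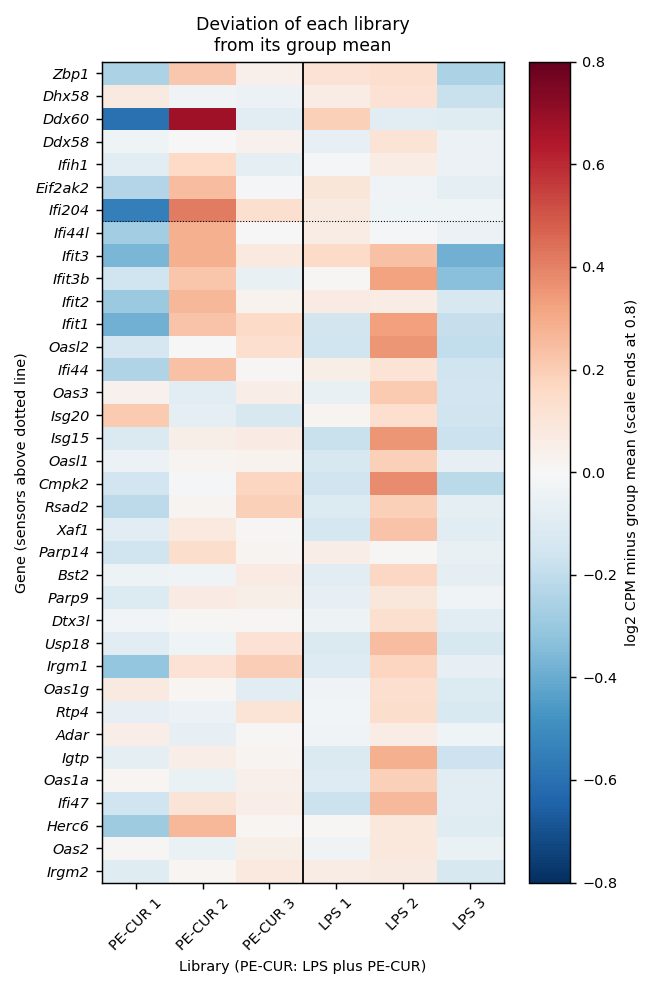
Deviation of each library from the mean of its own group (colour, in log2 CPM, scale ends at 0.8) for the 36 tested genes (rows, sensors above the dotted line) in the 3 LPS plus PE-CUR and 3 LPS libraries (columns). LPS plus PE-CUR replicate 1 is lowest of its group in 29 of 36 genes and LPS replicate 2 highest of its group in 30 of 36.

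Levels of different genes were compared with the deposited FPKM values, which divide by gene length. In LPS plus PE-CUR Bst2 was the most abundant member with 278 ± 9.49 FPKM, against 171 ± 16.7 FPKM in LPS, where it also ranked first (mean ± SD, n = 3). Next in LPS plus PE-CUR came Ifi44 with 145 ± 20.97, Oasl1 with 101 ± 0.808 and Usp18 with 83.5 ± 5.31 FPKM. Isg15 (69.4 ± 3.19), Ifi44l (68.5 ± 11.9), Oas1a (68.3 ± 3.25) and Oas3 (67.4 ± 4.66 FPKM) followed, and these 4 did not differ beyond their spread. In LPS, by contrast, Ifi44l ranked 20th of 38 with 8.53 ± 0.289 FPKM. The most abundant sensor in LPS plus PE-CUR was Ddx58 with 41.1 ± 0.598 FPKM, against 22.7 ± 1.46 FPKM in LPS. In LPS the sensor with the highest mean was Eif2ak2 with 24.8 ± 1.47 FPKM. Its order with Ddx58 was not the same in every library, since in LPS replicate 2 Ddx58 had 24.4 and Eif2ak2 24.2 FPKM. Ifi205, Iigp1 and Ddx60 had the lowest FPKM of the 38 in LPS plus PE-CUR, at 1.37 ± 0.593 or less. Ddx60 and Ifit3b (1.40 ± 0.169 FPKM) did not differ there beyond their spread, and in replicate 2 Ddx60 had 2.03 and Ifit3b 1.59 FPKM. In LPS the lowest were Ifi205, Iigp1 and Ifit3b, at 0.339 ± 0.0744 or less.

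The genes around the set were taken from lists. Ifnb1, the gene of interferon beta, had 9, 7 and 3 counts in LPS plus PE-CUR and 2, 0 and 1 counts in LPS, below the filter of the test. The groups did not overlap, but only by the margin of 3 counts in the lowest LPS plus PE-CUR library against 2 in the highest LPS library. Without a filter Ifnb1 was called higher by edgeR (adjusted p = 0.0222) and by limma on log2(FPKM + 1) (0.0296), but not by DESeq2 (0.0774). Ifng had 0, 0 and 0 counts in LPS plus PE-CUR and 0, 0 and 1 counts in LPS. Over all 13014 genes 30.8% were higher and 32.7% lower. Of the 5 tested receptor genes 0 were higher and 3 (60%) lower (median log2 fold change -0.35). The lower genes included both chains of the receptor for interferon alpha and beta. Ifnar2 fell to 48.1 ± 1.53 CPM in LPS plus PE-CUR, against 80.4 ± 7.51 CPM in LPS (mean ± SD, n = 3 each, edgeR adjusted p = 9.21e-06). Ifnar1 fell to 52.00 ± 2.32 CPM, against 66.3 ± 3.69 CPM in LPS (adjusted p = 9.05e-04), and Il10rb, a chain shared with the lambda interferon receptor, to 32.9 ± 2.58 CPM, against 56.5 ± 7.96 CPM in LPS (adjusted p = 9.75e-05).

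Of 12 tested signal transducers and interferon regulatory factors, 4 were higher (33.3%), 2 lower (16.7%) and 6 not called (median log2 fold change 0.07). The shares over all genes tested were 30.8% higher and 32.7% lower, so the share of higher genes was near that of all genes. Irf7, the factor that drives the later wave of interferon genes, had 337, 314 and 314 CPM in LPS plus PE-CUR, against 81.5, 103 and 74.8 CPM in LPS (log2 fold change 1.90 with SE 0.11, edgeR adjusted p = 2.20e-06). Its level was higher in every LPS plus PE-CUR library than in any LPS library, and Irf8, a myeloid factor, was also higher (log2 fold change 0.80, adjusted p = 1.18e-06). The receptor kinase genes Jak2 and Jak1 were lower (log2 fold change -0.38 and -0.22).

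Of 12 tested other nucleic acid sensors, 6 were higher (50%), 4 lower (33.3%) and 2 not called (median log2 fold change 0.15). The shares over all genes tested were 30.8% higher and 32.7% lower. Cgas, the sensor of cytosolic DNA, had 50.9, 55.6 and 57.5 CPM in LPS plus PE-CUR, against 22.9, 23.1 and 20.1 CPM in LPS (log2 fold change 1.31 with SE 0.08, edgeR adjusted p = 3.30e-07). The helicase genes Ddx41 and Dhx9 were higher (log2 fold change 0.71 and 0.92), while the endosomal receptor genes Tlr9 and Tlr8 were lower (log2 fold change -0.64 and -1.57), Tlr8 at under 1 CPM in every library. Without LPS plus PE-CUR replicate 3 or any one LPS library, the lower calls of this list numbered 1 or 2. Of 15 tested adaptors, kinases and ligases 4 were higher (26.7%), 7 lower (46.7%) and 4 not called (median -0.19). Ikbke, a kinase that phosphorylates interferon regulatory factors, had 62.5, 66.2 and 58.4 CPM in LPS plus PE-CUR, against 10.8, 12.8 and 13.1 CPM in LPS (log2 fold change 2.35 with SE 0.09, edgeR adjusted p = 2.91e-08). Myd88 was higher too (log2 fold change 0.41). Sting1, the adaptor of cGAS, Trim25, a ligase that acts on RIG-I, and Ticam2, an adaptor of TLR4, were lower (log2 fold change -0.32, -0.23 and -0.32). Lower calls in this list numbered 7 with all libraries and without LPS plus PE-CUR replicate 1, and 3 or 4 when any other single library was left out.

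Of 11 tested brakes on interferon signalling or nucleic acid sensing, 7 were higher (63.6%), 1 lower (9.09%) and 3 not called (median log2 fold change 0.30). The shares over all genes tested were 30.8% higher and 32.7% lower. The phosphatase gene Ptpn6, Rnaseh2a, a subunit of the enzyme that removes RNA from DNA hybrids, and Samhd1, which depletes deoxynucleotides, were higher (log2 fold change 1.52, 1.04 and 0.65), and Nlrc3 was lower (log2 fold change -0.71). Of 23 tested other interferon-induced antiviral genes 18 were higher (78.3%), 4 lower (17.4%) and 1 not called, with a median log2 fold change of 0.74. Phf11b, Ifitm6, a membrane protein of a family that blocks virus entry, and Mov10, an RNA helicase, were higher (log2 fold change 2.22, 1.43 and 1.36). Ifi27 fell to 75.6 ± 5.18 CPM in LPS plus PE-CUR, against 210.4 ± 2.62 CPM in LPS (log2 fold change -1.48, edgeR adjusted p = 4.58e-08).

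**Figure D5:**
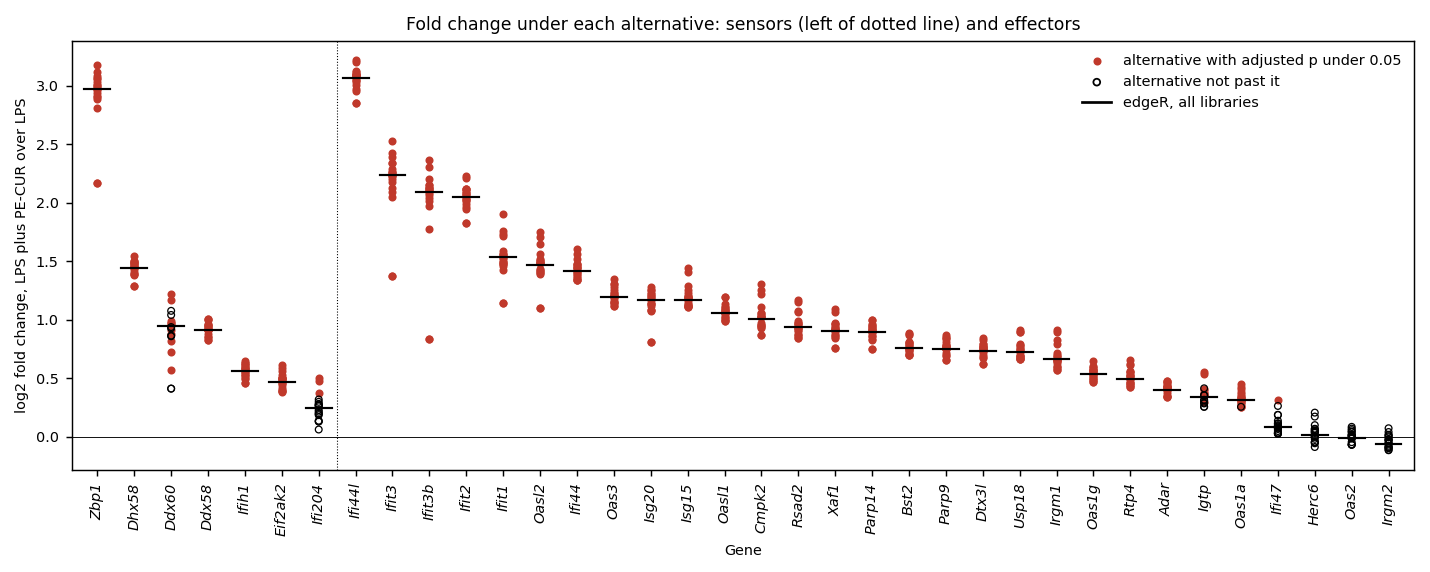
Log2 fold change, LPS plus PE-CUR over LPS (y axis), of each tested gene (x axis) under 19 alternative settings of scaling, filter, tool, unit and libraries; filled points are past an adjusted p of 0.05, open points are not, and the bar is the value with all 6 libraries. Points are on both sides of the threshold for Ddx60, Ifi204, Igtp, Oas1a and Ifi47, and points of Oas2, Herc6 and Irgm2 lie on both sides of 0.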

How the data were processed

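RNA was extracted with TRIzol and sequenced after VAHTS Universal V6 library preparation, per the labels' protocols. The submitters' processing notes name fastp, HTSeq, SAMtools and DESeq2 with build mm10. Which aligner, annotation and strand setting were used is not given here. The authors deposited whole-number counts for 21604 gene symbols in 6 libraries. They also deposited FPKM values. The gene length implied by count, FPKM and library total was the same across libraries in 100% of 102941 values above 0 (relative tolerance 1e-04). Genes with reads in a lone library were left out, and no annotated gene lengths were compared.

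Counts were fitted in R 4.3.3 with edgeR 4.0.16: filterByExpr with the group (13014 genes kept), TMM factors (0.964 to 1.03), a robust quasi-likelihood model with the group as its only term, and two-sided p-values adjusted by Benjamini-Hochberg over all genes tested (threshold 0.05). Each log2 fold change sets LPS plus PE-CUR over LPS, and its SE is its size over the root of its F statistic. The fit was tested on simulated data with known changes, and the outcome is not given here. Alternatives used other scaling, filters, DESeq2 1.42.0, limma 3.58.1 (voom, log2(FPKM + 1), log2(FPKM + 0.1)), a replicate block and fewer libraries. Members and lists were chosen with earlier results of these data known. All members are named whatever their result, and each pathway list by its called genes of smallest p, up to 3 in the more frequent direction and 2 in the opposite one. Some genes that this rule picks are not reported here. Gene positions and transcripts came from GENCODE M21 (GRCm38), promoters from RefSeq (GRCm38.p6). Shared 50-base words of coding transcripts replaced a planned protein comparison. Total counts of 28530750 to 35276533 per library give 28.5 to 35.3 counts at 1 CPM.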

Additional observations from a re-analysis of the deposited data

How the results depend on the processing

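Of the 36 tested genes 28 to 33 were higher and 0 lower over the 19 alternatives run, against 15.1% to 32.4% higher of all genes tested, with a median log2 fold change between 0.73 and 1.001. Leaving out each library in turn gave 29 to 32 higher genes. The 33 and the median of 1.001 came from leaving out LPS plus PE-CUR replicate 1 and LPS replicate 2, picked by the levels of these same genes. The median of all genes moved furthest with DESeq2 (to -0.13) and without a filter (to -0.10). Calls were lost only for Ddx60, Igtp and Oas1a, the last in limma on log2(FPKM + 1) without a filter (adjusted p = 0.0635). Ifi47 gained a call without LPS plus PE-CUR replicate 1 and LPS replicate 2 (adjusted p = 0.0363). Sign changes occurred only for Oas2, Herc6 and Irgm2, which were called under no alternative, and their cause was not tested. For Oas2 the log2 fold change was 0.0068 with median-ratio factors, 0.023 without mitochondrial and the 10 most abundant genes, 0.044 without a filter and 0.019 with DESeq2. It was -0.011 to 0.071 over the fits that left out 1 library, 0.086 without LPS plus PE-CUR replicates 1 and 2, and 0.044 without LPS plus PE-CUR replicate 1 and LPS replicate 2. For Herc6 it was -0.042 with library size alone, -0.016 at a mean of at least 1 CPM, -0.046 in limma on log2(FPKM + 1) with and without a filter, and -0.054 on log2(FPKM + 0.1). It was -0.086 to 0.17 over the fits that left out 1 library and 0.21 without LPS plus PE-CUR replicate 1 and LPS replicate 2. For Irgm2 it was -0.084 to 0.019 over the fits that left out 1 library, 0.074 without LPS plus PE-CUR replicates 1 and 2, and 0.042 without LPS plus PE-CUR replicate 1 and LPS replicate 2.

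Same-numbered libraries did not deviate together over all genes (correlations of deviations -0.10, -0.18 and -0.05). Deviations from a mean of 3 libraries depend on each other, and whether same-numbered libraries share a culture or a preparation was not tested. With the replicate number as a block, 30 members were higher and 0 lower, and 3708 genes were higher and 3953 lower over the whole table. Among other nucleic acid sensors lower calls numbered 4 without the block and 2 with it. At 3 libraries a group, and with an SE of 0.06 to 0.13, small changes of Oas2, Herc6, Irgm2 and Ifi47 were not detectable.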
